A study of Homo sapiens with 4 samples.

Results

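The genes described here carry chromosomes through mitosis. They encode subunits of the kinetochore, the spindle checkpoint, the chromosomal passenger complex, the kinases and phosphatases of mitotic entry, and proteins of the spindle and of cytokinesis. A fixed list of 53 gene symbols was used, and a member was the row of the count table that carries its symbol. Cyclins, and kinesins other than CENPE, were left out of the list. Of the 53, 52 were found among the 12912 genes of the table, each on a single row, and all 52 had enough counts to be tested. SKA1 was not analysed here.

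The libraries come from 786-O, a human line of clear cell renal carcinoma without functional VHL, the substrate receptor of a ubiquitin ligase that marks the HIFα proteins for degradation. 786-O-Ctrl libraries carry the genotype label of the VHL-null line, and 786-O-VHL libraries that of VHL restoration, for which the study used a retroviral vector with HA-tagged VHL. Both sublines also carry a triple reporter of GFP, luciferase and thymidine kinase, and both were grown in RPMI medium with serum and antibiotics. There were 2 libraries in each group. Each group is a single subline, so an effect of VHL cannot be told apart from other differences between the sublines. Nothing in the sources used here says whether a subline is a clone or a pool, or that the replicates were separate cultures, so p-values measure the spread between these libraries, which may be technical.

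During a cell cycle, the kinetochore is built on centromeric chromatin marked by the histone variant CENP-A. Its inner layer binds that chromatin and its outer layer binds microtubules. Kinetochores without attached microtubules produce a checkpoint signal that holds back the anaphase-promoting complex, and once that signal ends, securin is degraded and separase opens the cohesin rings. Most of these genes are transcribed late in the cycle, under B-MYB and FOXM1 bound to a MuvB complex, and are repressed in resting cells by the DREAM complex, which also contains MuvB. The promoter elements known for this control are the CHR (cell cycle genes homology region) and the CCAAT box bound by NF-Y, while E2F sites are known mainly from genes of the G1/S transition.

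Promoter sequences of RefSeq (GRCh38.p14) were found for 43 of the 52 tested members. The entries for BIRC5, BUB3, CENPH, CENPL, CENPM, FOXM1, KNTC1, TPX2 and TTK were missing. Stretches of 250 bases that end just before the transcription start are shown for 7 members on which the results below turn: ZWINT, CENPU and DSN1, whose mRNA fell most after that of SPC25, a member with few counts; CDC20, the member with the highest level per length; CENPA and MIS12, which did not pass the test; and CDC25B, which was higher. They run 5′ to 3′ along the gene. Capitals mark matches, on either strand, to the CHR letters TTTGAA and the variant TTCGAA, to the CCAAT box, or to the E2F site, for which the letters TTGGCGC were searched along with TTCCCGC and with the further forms TTGCCGC and also, as the last form, TTCGCGC.
ZWINT (GRCh38.p14 chr10:56361260-56361509, minus strand): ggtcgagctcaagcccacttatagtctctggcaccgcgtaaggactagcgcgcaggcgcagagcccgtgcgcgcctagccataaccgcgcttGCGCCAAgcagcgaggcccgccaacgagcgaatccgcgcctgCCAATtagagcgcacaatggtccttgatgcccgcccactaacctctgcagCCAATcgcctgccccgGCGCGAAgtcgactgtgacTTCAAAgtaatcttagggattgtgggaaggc
CENPU (GRCh38.p14 chr4:184734097-184734346, minus strand): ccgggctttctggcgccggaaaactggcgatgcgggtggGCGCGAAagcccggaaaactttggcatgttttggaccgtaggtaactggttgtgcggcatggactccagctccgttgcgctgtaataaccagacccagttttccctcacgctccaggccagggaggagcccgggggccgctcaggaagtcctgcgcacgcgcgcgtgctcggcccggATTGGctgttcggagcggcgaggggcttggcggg
DSN1 (GRCh38.p14 chr20:36773764-36774013, minus strand): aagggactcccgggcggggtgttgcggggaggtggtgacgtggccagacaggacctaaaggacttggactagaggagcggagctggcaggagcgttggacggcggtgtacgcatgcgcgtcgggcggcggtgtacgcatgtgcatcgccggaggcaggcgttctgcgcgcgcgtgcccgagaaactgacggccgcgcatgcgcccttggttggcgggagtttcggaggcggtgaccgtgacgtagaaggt
CDC20 (GRCh38.p14 chr1:43358731-43358980, plus strand): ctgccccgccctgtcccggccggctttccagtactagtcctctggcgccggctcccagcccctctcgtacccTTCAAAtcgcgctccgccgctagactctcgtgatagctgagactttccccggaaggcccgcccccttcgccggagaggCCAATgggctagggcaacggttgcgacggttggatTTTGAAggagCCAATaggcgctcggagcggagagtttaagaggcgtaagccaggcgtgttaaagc
CENPA (GRCh38.p14 chr2:26785806-26786055, plus strand): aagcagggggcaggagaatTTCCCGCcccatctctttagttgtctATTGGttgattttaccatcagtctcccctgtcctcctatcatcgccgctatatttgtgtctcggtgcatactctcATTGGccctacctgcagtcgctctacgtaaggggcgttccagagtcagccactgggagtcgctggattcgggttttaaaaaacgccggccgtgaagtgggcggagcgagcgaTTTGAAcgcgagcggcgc
MIS12 (GRCh38.p14 chr17:5486124-5486373, plus strand): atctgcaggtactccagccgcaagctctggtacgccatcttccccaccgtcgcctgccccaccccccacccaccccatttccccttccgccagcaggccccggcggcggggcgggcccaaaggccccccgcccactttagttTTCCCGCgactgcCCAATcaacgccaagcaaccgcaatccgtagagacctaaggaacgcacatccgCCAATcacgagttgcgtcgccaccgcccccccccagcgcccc
CDC25B (GRCh38.p14 chr20:3786701-3786950, plus strand): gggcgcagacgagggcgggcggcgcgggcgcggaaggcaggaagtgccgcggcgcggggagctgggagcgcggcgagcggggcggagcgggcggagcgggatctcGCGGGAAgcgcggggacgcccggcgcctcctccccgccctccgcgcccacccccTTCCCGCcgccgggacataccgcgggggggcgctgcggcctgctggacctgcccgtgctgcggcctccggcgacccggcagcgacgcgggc

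The ZWINT sequence holds matches of all 3 kinds, with a CHR match that begins 31 bases before the start and CCAAT boxes that begin 116 and 66 bases before it. In CDC20, a CHR match begins 65 bases before the start, between CCAAT boxes at 100 and 55 bases. CENPA holds a CHR match at 18 bases and CCAAT boxes at 205 and 130 bases. The CENPU, MIS12 and CDC25B stretches hold no CHR letters, and that of CDC25B holds neither CHR letters nor a CCAAT box. No letters of any of the 3 kinds are in the DSN1 stretch, which says nothing about the factors that act there.

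Reads counted on genes summed to between 2807779 in 786-O-VHL replicate 1 and 22141263 in the deeper of the 786-O-Ctrl pair. The 786-O-Ctrl columns carry the same replicate number and are named here by depth. VHL mRNA itself was at 42.9 and 43.9 CPM in 786-O-Ctrl, and at 178 and 163 CPM in 786-O-VHL, where CPM are counts relative to the library total after TMM scaling, which sets libraries to a common scale. The labels were also checked against cell type markers. All 7 renal epithelial markers were counted and summed to 1494 and 1448 CPM in 786-O-Ctrl, and to 1211 and 1113 CPM in 786-O-VHL, while the leukocyte, endothelial and fibroblast markers in the table (1, 2 and 1 of 4 each) summed to at most 1.02, 1.13 and 7.12 CPM. The share of mitochondrial counts moved with the group as well, from 2.46% and 2.62% in 786-O-Ctrl to 1.98% and 1.79% in 786-O-VHL, and the part of either in the results below was not tested. Annotated exons of 18 members share bases with another gene, and the 3 with over 20% of their length shared are named where they are described.

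Most mitotic genes were less abundant in 786-O-VHL than in 786-O-Ctrl. Of the 52 members, 46 passed as lower in 786-O-VHL (edgeR FDR, the Benjamini-Hochberg adjusted p, under 0.05), against 31.9% of the 12335 genes tested. Of these members, 24 were lower by more than 2-fold, against 7.52% of all genes tested. CDC25B was the only member that was higher, where 32.6% of all genes tested were, and the only one with both 786-O-VHL libraries above both 786-O-Ctrl libraries, where 40.8% of all genes were. The 5 members that did not pass were CENPA, CENPC, CENPL, MIS12 and CDC25C. The median log2 fold change of 786-O-VHL over 786-O-Ctrl was -0.93 over the members, with quartiles of -1.24 and -0.59, beside a median of 0.02 and quartiles of -0.40 and 0.46 over all genes tested. Since these are bulk libraries, fewer cells in the phases that express these genes and less mRNA per expressing cell cannot be told apart.

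The same was seen in the libraries themselves. Summed over the 52 members, mitotic mRNA was at 5069 and 4986 CPM in the deeper and then the shallower 786-O-Ctrl library and at 2753 and 2962 CPM in 786-O-VHL replicates 1 and 2. For 48 members both 786-O-VHL libraries lay below both 786-O-Ctrl libraries, as for 39.2% of all genes tested. The plot of levels by library shows this separation gene by gene. The 786-O-VHL libraries also differed from each other, and 39 of the 52 members were lower in replicate 1 than in replicate 2, against 50.3% of all genes tested. That difference had a median of -0.13 on the log2 scale over the members, with 0.5 CPM added to each value. Over all genes tested the median was -0.0015. The median absolute difference was 0.152 over the members and 0.154 over all genes tested. In replicate 1, 10 members had fewer than 30 counts, and 1 did in replicate 2. Without replicate 1 the number of lower members was still 46, and without replicate 2 it was 44.

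**Figure D1:**
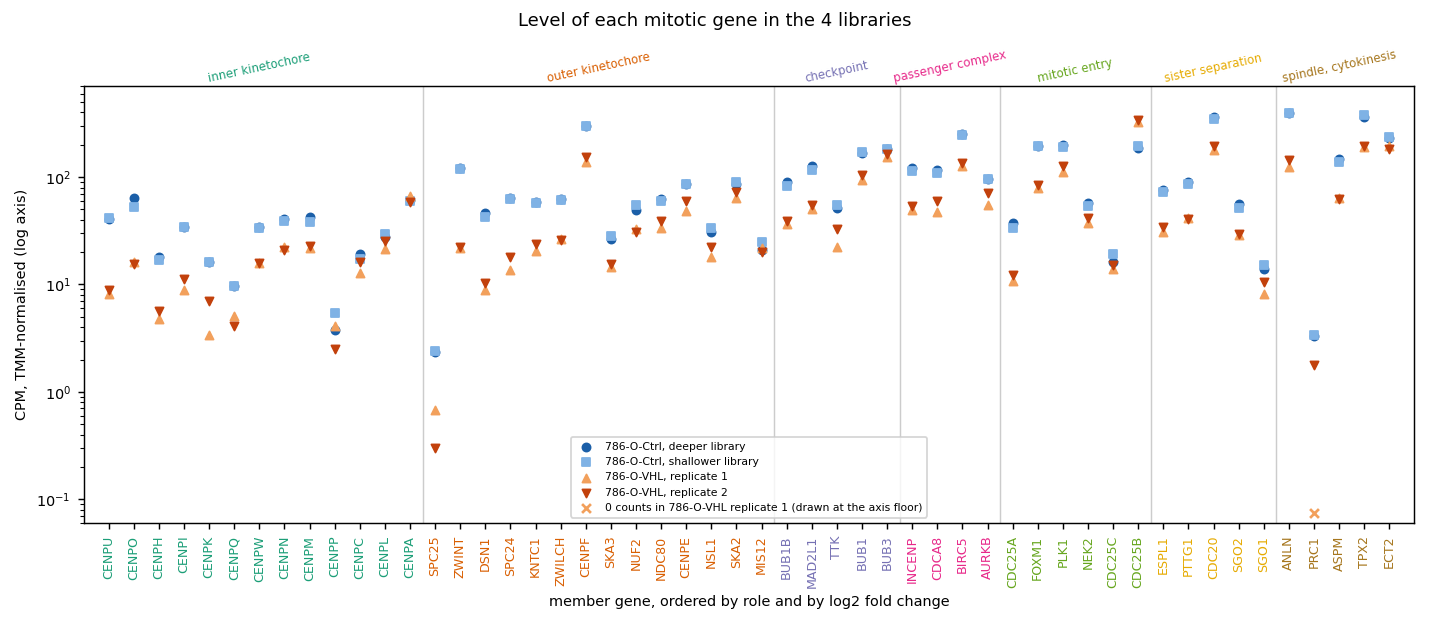
Level of the 52 tested members in CPM on a log axis, by role and, within a role, by fold change, with a separate symbol for each of the 4 libraries. The 786-O-VHL symbols lie below the 786-O-Ctrl symbols for 48 members, CDC25B lies above them, and CENPA, CENPP and MIS12 overlap.

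Inner kinetochore genes ranged from a log2 fold change of -2.23 for CENPU to no detectable difference for CENPA. Of the 13 members of this layer, 10 were lower, against 31.9% of all genes tested, with a median log2 fold change of -1.11. CENPU, a subunit of the CENP-OPQUR group that helps to bring PLK1 to kinetochores, was at 40.5 and 42.0 CPM in the deeper and then the shallower 786-O-Ctrl library and at 8.14 and 8.91 CPM in 786-O-VHL replicates 1 and 2. Both 786-O-VHL libraries thus held far less CENPU mRNA than either 786-O-Ctrl library. CENPU (ENSG00000151725.12, chromosome 4 of GRCh37 from 185615239 to 185655284) changed by -2.23 ± 0.127 on the log2 scale (SE, edgeR FDR = 7.08e-15). Its neighbour in the complex, CENPO, fell from 63.7 and 52.2 CPM to 16.3 and 15.6 CPM, or -1.89 ± 0.116 on the log2 scale (SE, edgeR FDR = 3.24e-14). Exons of ADCY3 on the opposite strand share 27.0% of the CENPO exon length, and the use of strand in counting is not given in the sources used here.

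CENPH, CENPI and CENPK, of the CENP-HIKM group that links centromeric chromatin to the outer layer, had log2 fold changes of -1.68, -1.67 and -1.35. The fourth subunit, CENPM, had a value of -0.82. CENPK was at 3.39 CPM in 786-O-VHL replicate 1, from 10 counts, and at 7.01 CPM in replicate 2, and without replicate 2 its log2 fold change was -2.26. CENPQ, CENPW and CENPN were lower with log2 fold changes of -1.17, -1.11 and -0.90. CENPP, a low-count gene with 12 to 81 counts per library, passed the test narrowly (log2 fold change -0.68, edgeR FDR = 0.0488). Its libraries overlapped, the call was lost without the shallower 786-O-Ctrl library (FDR = 0.457) or without 786-O-VHL replicate 2 (FDR = 0.834) in edgeR, and exons of IPPK on the opposite strand take up 39.9% of its exon length.

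CENPA, the histone H3 variant that defines the centromere, was at 60.8 and 60.5 CPM in 786-O-Ctrl, and at 67.2 and 58.3 CPM in 786-O-VHL. The 786-O-VHL libraries lay on either side of the 786-O-Ctrl pair. The log2 fold change of CENPA (ENSG00000115163.15, chromosome 2 of GRCh37 from 26987157 to 27023935) was -0.0032, with a 95% interval from -0.16 to 0.16 and an edgeR FDR of 0.974, so that its sign depended on the processing. CENPC, which binds CENP-A nucleosomes directly, was at 19.3 and 17.2 CPM in 786-O-Ctrl, and at 12.9 and 16 CPM in 786-O-VHL. Its log2 fold change of -0.26 had a 95% interval from -0.54 to 0.03 (edgeR FDR = 0.106), which leaves room for a modest fall. CENPL, the partner of CENPN, was at 27.4 and 29.4 CPM and at 21.4 and 25.6 CPM, with a log2 fold change of -0.20, a 95% interval from -0.44 to 0.03 and an edgeR FDR of 0.115. For CENPC and CENPL the groups did not overlap.

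In the outer kinetochore, 13 of 14 tested members were lower, against 31.9% of all genes tested, with a median log2 fold change of -0.92. ZWINT, which binds KNL1 and is needed for the RZZ complex (ROD, ZW10 and Zwilch) to stay at kinetochores, changed most among members with over 50 counts in every library. Its mRNA was at 121 and 118 CPM in 786-O-Ctrl, and at 21.7 and 22.3 CPM in 786-O-VHL. The libraries of each group were nearly alike and the groups far apart. ZWINT (ENSG00000122952.17, chromosome 10 of GRCh37 from 58116988 to 58121034) changed by -2.43 ± 0.0841 on the log2 scale (SE, edgeR FDR = 1.28e-19). DSN1, of the Mis12 complex that joins the inner and the outer layer, fell from 46.2 and 42.5 CPM to 8.82 and 10.4 CPM. DSN1 (ENSG00000149636.15, chromosome 20 of GRCh37 from 35380194 to 35402221) changed by -2.14 ± 0.124 on the log2 scale (SE, edgeR FDR = 1.02e-14).

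SPC24 and SPC25 encode the end of the Ndc80 complex that faces the chromosome. SPC24 was at 64.4 and 62.4 CPM in 786-O-Ctrl, and at 13.6 and 18.1 CPM in 786-O-VHL, or -1.88 ± 0.103 on the log2 scale (SE, edgeR FDR = 3.00e-15). SPC25 had the lowest fold change of all members, -2.69, but rested on few counts, 49 and 36 in the VHL-null libraries but 2 and 5 with VHL restored. Without 786-O-VHL replicate 2 its call was lost (log2 fold change -1.79, edgeR FDR = 0.108). The SPC25 identifier of the table, ENSG00000277909.4, is not in the GRCh37 annotation used. NDC80 and NUF2, the microtubule-binding end of the same complex, were lower by less, with log2 fold changes of -0.69 and -0.75.

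KNTC1, which encodes the ROD protein, and ZWILCH had log2 fold changes of -1.32 and -1.25. CENPF, a large microtubule-binding protein of the late cell cycle, was at 297 CPM in both 786-O-Ctrl libraries and at 139 and 153 CPM in 786-O-VHL, or -1.0 on the log2 scale. CENPE, a plus-end motor of kinetochores, was at 86.8 and 87.0 CPM in 786-O-Ctrl, and at 48.2 and 60.5 CPM in 786-O-VHL, or -0.60 on the log2 scale. SKA3 and SKA2, of the complex that tracks shortening microtubules, were lower with log2 fold changes of -0.83 and -0.33, and NSL1 of the Mis12 complex with -0.58. MIS12 itself was at 21.2 and 24.9 CPM in 786-O-Ctrl, and at 22 and 20.01 CPM in 786-O-VHL, overlapping groups with a log2 fold change of -0.16, a 95% interval from -0.42 to 0.10 and an edgeR FDR of 0.269.

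**Figure D2:**
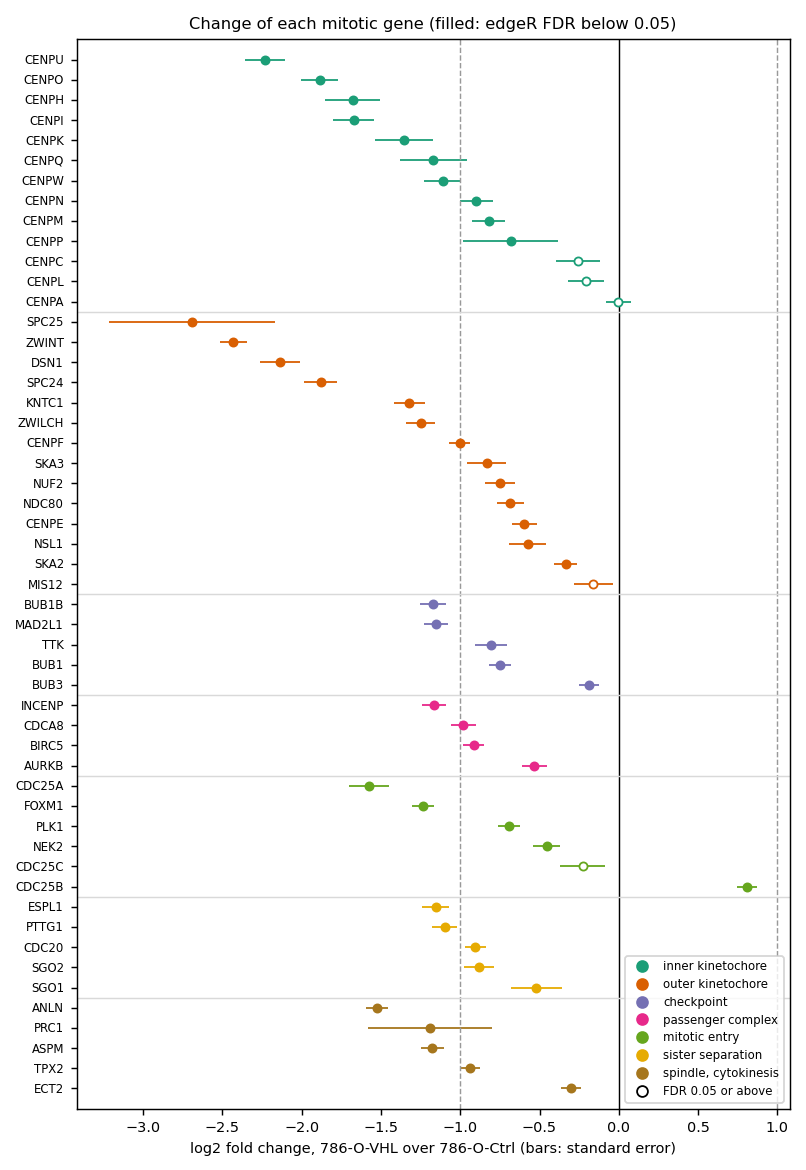
Log2 fold change of 786-O-VHL over 786-O-Ctrl for the 52 tested members by role, with standard errors; filled points passed an edgeR FDR of 0.05 and dashed lines mark 2-fold. Values run from -2.69 for SPC25 to 0.81 for CDC25B, and the 5 open points lie between -0.26 and 0.

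Subunits of a complex therefore did not fall by the same amount, which could be followed within each library as the share of a subunit in the summed level per kb of annotated exon. Such shares do not depend on the scaling between libraries. Their size does depend on the annotated exon length, which joins all transcripts of a gene. In the Mis12 complex, DSN1 made up 50.7% and 48.7% of the level in the deeper and then the shallower 786-O-Ctrl library and 22.7% and 24.04% in 786-O-VHL replicates 1 and 2. MIS12 went from 20.1% and 24.7% to 49.2% and 40.2%, while PMF1 overlapped between the groups. Of the NDC80, NUF2 and SPC24 mRNA, SPC24 made up 41.3% and 39.8% without VHL and 19.99% and 24.01% with VHL restored. The DSN1, MIS12 and SPC24 shares were thus apart in all 4 libraries.

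CENPM took 59.0% and 57.0% of the CENPH, CENPI, CENPK and CENPM level without VHL and 75.04% and 69.4% with VHL restored. CENPQ took 18.9% and 20.1% of the CENPO, CENPP, CENPQ and CENPU level without VHL and 33.8% and 29.4% with VHL restored. In the chromosomal passenger complex, BIRC5 made up 35.8% and 36.3% without VHL and 37.6% and 34.1% with VHL restored, and these shares overlapped. The other subunits of that complex did not overlap: AURKB went from 23.2% and 23.9% up to 27.7% and 30.1%, while INCENP went from 14.8% and 14.4% down to 12.5% and 11.6%, and CDCA8 from 26.2% and 25.4% down to 22.3% and 24.1%. With 2 libraries per group, an exact permutation test of a share cannot give a p below 0.333, and these shares were described and not tested.

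**Figure D3:**
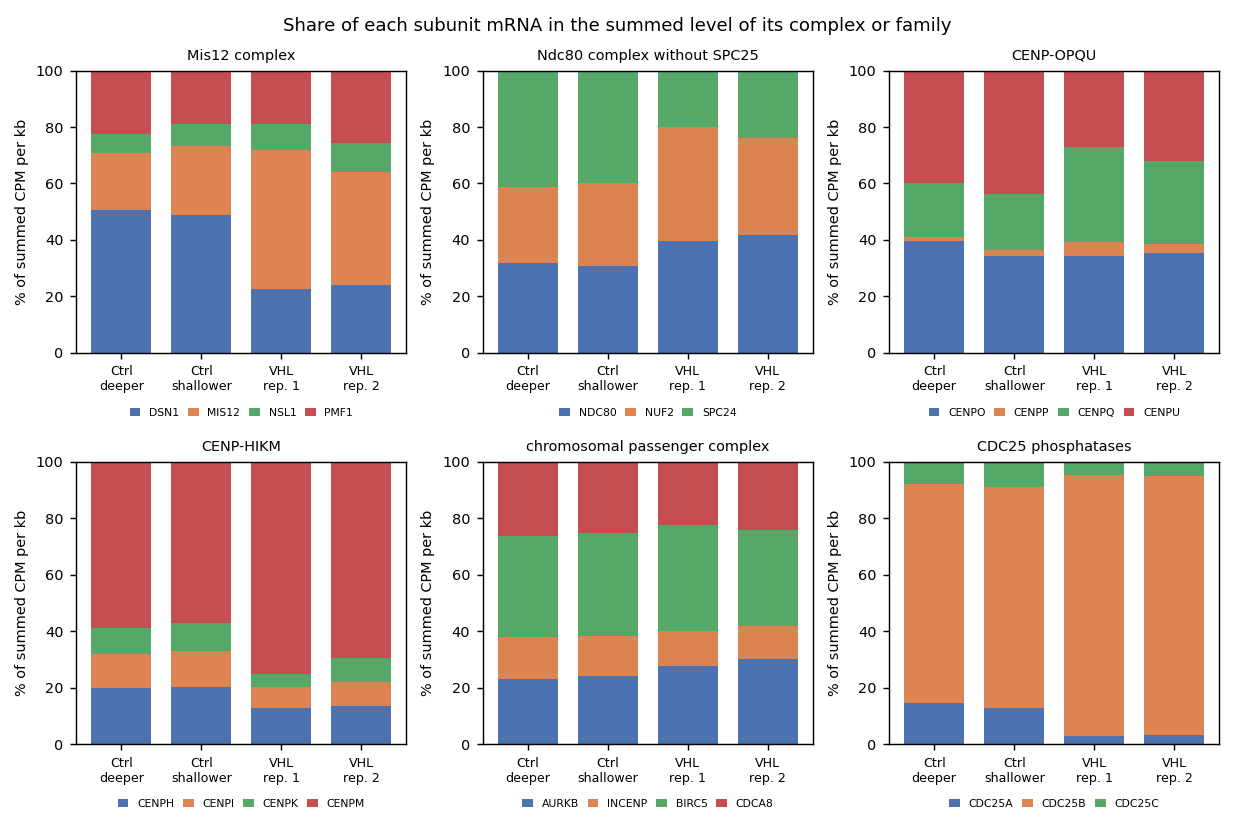
Stacked bars of the percent that each subunit or family member contributes to the summed CPM per kb of its complex in each of the 4 libraries. DSN1 and SPC24 take smaller parts with VHL restored than in the VHL-null line, and in the passenger complex BIRC5 overlaps between 34.1% and 37.6% while AURKB takes a larger part with VHL restored.

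All 5 members of the spindle checkpoint were lower, against 31.9% of all genes tested, with a median log2 fold change of -0.81. BUB1B, which encodes the BUBR1 subunit of the mitotic checkpoint complex, was at 89.9 and 83.2 CPM in 786-O-Ctrl, and at 36.3 and 39.1 CPM in 786-O-VHL. The log2 fold change of BUB1B (ENSG00000156970.12, chromosome 15 of GRCh37 from 40453224 to 40513324) was -1.17 ± 0.0804 (SE, edgeR FDR = 3.74e-13). MAD2L1, which encodes the MAD2 protein that captures CDC20, fell from 126 and 116 CPM to 50.9 and 55.6 CPM, or -1.15 on the log2 scale. BUB1 and TTK, the kinases that set up the checkpoint signal at kinetochores, had log2 fold changes of -0.75 and -0.81.

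BUB3, the WD-repeat protein that carries BUB1 and BUBR1 to kinetochores, changed least of the 5. It was at 184 and 181 CPM in 786-O-Ctrl, and at 155 and 163 CPM in 786-O-VHL, with a log2 fold change of -0.19 ± 0.0642 (SE, edgeR FDR = 0.0123). Its call did not hold after thinning to the shallowest library (log2 fold change -0.20, edgeR FDR = 0.0552). It did not hold with scaling by library totals alone either (log2 fold change -0.05, edgeR FDR = 0.470). The call was also lost without the deeper and without the shallower 786-O-Ctrl library, at log2 fold changes of -0.19 and -0.21.

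The chromosomal passenger complex, which corrects faulty attachments and later works at the midzone, was lower in all 4 of its genes. Of all genes tested, 31.9% were lower. INCENP, its scaffold, was at 123 and 114 CPM in 786-O-Ctrl, and at 49.2 and 54.0 CPM in 786-O-VHL. INCENP (ENSG00000149503.13, chromosome 11 of GRCh37 from 61891470 to 61920641) changed by -1.16 ± 0.0755 on the log2 scale (SE, edgeR FDR = 1.14e-13). CDCA8, or borealin, and BIRC5, or survivin, had log2 fold changes of -0.98 and -0.91. AURKB, the kinase of the complex, was at 97.0 and 95.2 CPM in 786-O-Ctrl, and at 54.9 and 70.4 CPM in 786-O-VHL, the smallest change of the complex with a log2 fold change of -0.53 (edgeR FDR = 1.18e-06).

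Genes of mitotic entry went different ways. The CDC25 phosphatases remove inhibitory phosphates from cyclin-dependent kinases, CDC25A also at the G1/S transition. CDC25A was at 37.7 and 33.6 CPM in 786-O-Ctrl, and at 10.9 and 12.3 CPM in 786-O-VHL, or -1.57 ± 0.126 on the log2 scale (SE, edgeR FDR = 1.11e-11). CDC25B was at 188 and 196 CPM in 786-O-Ctrl, and at 328 and 342 CPM in 786-O-VHL, so that both 786-O-VHL libraries held more of it. The log2 fold change of CDC25B (ENSG00000101224.17, chromosome 20 of GRCh37 from 3767419 to 3786768) was 0.81 ± 0.0627 (SE, edgeR FDR = 5.03e-12), and between 0.77 and 0.94 over the 11 alternatives of the processing. CDC25C was at 16.3 and 19.1 CPM and at 13.9 and 15.3 CPM, with a log2 fold change of -0.23, a 95% interval from -0.52 to 0.06 and an edgeR FDR of 0.156.

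Per kb of exon, CDC25B was already the most abundant of these phosphatases in 786-O-Ctrl, with 77.5% and 78.4% of their summed level, and it made up 92.5% and 92.1% in 786-O-VHL. The part of CDC25A went from 14.7% and 12.6% to 2.88% and 3.11%. FOXM1, the transcription factor of the late cell cycle, was at 195 CPM in both 786-O-Ctrl libraries and at 79.7 and 84.0 CPM in 786-O-VHL, or -1.24 ± 0.0681 on the log2 scale (SE, edgeR FDR = 3.25e-15). PLK1, a kinase of entry, spindle and cytokinesis, and NEK2, a kinase of centrosome separation, were lower with log2 fold changes of -0.69 and -0.46.

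The genes of sister separation were lower in all 5 cases, against 31.9% of all genes tested, with a median log2 fold change of -0.91. ESPL1, which encodes separase, was at 75.9 and 73.2 CPM in 786-O-Ctrl, and at 30.5 and 34.3 CPM in 786-O-VHL, or -1.16 ± 0.0837 on the log2 scale (SE, edgeR FDR = 1.23e-12). PTTG1, which encodes its inhibitor securin, fell alongside from 89.4 and 86.3 CPM to 41.4 and 41.0 CPM, or -1.10 on the log2 scale. CDC20, the coactivator that directs the anaphase-promoting complex to securin, was at 363 and 345 CPM in 786-O-Ctrl, and at 177 and 196 CPM in 786-O-VHL, or -0.91 on the log2 scale. The shugoshins, protectors of centromeric cohesin, had log2 fold changes of -0.88 for SGO2 and -0.52 for SGO1. SGO1 was counted less, with 24 counts in 786-O-VHL replicate 1. Its call was lost in DESeq2 (DESeq2 FDR = 0.0546) and after thinning to the shallowest library (edgeR FDR = 0.0829). It was also lost without the shallower 786-O-Ctrl library, where its log2 fold change was -0.47.

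Spindle and cytokinesis genes were lower in all 5 cases as well, against 31.9% of all genes tested. ANLN, or anillin, a scaffold of the contractile ring, was among the most abundant members and was at 395 and 392 CPM in 786-O-Ctrl, and at 124 and 143 CPM in 786-O-VHL. ANLN (ENSG00000011426.11, chromosome 7 of GRCh37 from 36429430 to 36493400) changed by -1.52 ± 0.0691 on the log2 scale (SE, edgeR FDR = 4.21e-17). ASPM, a protein of spindle poles, had a log2 fold change of -1.18, and TPX2, which activates Aurora A on spindle microtubules, one of -0.94. ECT2, the RhoA exchange factor that starts the contractile ring, differed least, from 229 and 235 CPM to 194 and 185 CPM, or -0.30 on the log2 scale (edgeR FDR = 0.000158). PRC1, the midzone bundling protein, had 70 and 51 counts in 786-O-Ctrl, 0 counts in 786-O-VHL replicate 1, which allows up to 1.02 CPM, and 30 counts in replicate 2. Its log2 fold change of -1.19 (edgeR FDR = 0.00954, but 0.374 in DESeq2) is uncertain: 57.6% of its exon length is shared with a same-strand annotated gene, so that counting may have divided reads among the pair.

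Levels of the members were compared per kb of annotated exon, since longer mRNAs collect more reads. That length joins the exons of all annotated transcripts of a gene. The transcripts present in these cells were not determined, so ranks between genes are approximate. In 786-O-Ctrl they ran from 176 CPM per kb for CDC20, 102 for TPX2 and 65.6 for ANLN down to 0.490 CPM per kb for CENPP. In 786-O-VHL, CDC20 was still the highest, at 92.7 CPM per kb, but CDC25B came next with 85.9, and ZWINT went from 50.3 to 9.25 CPM per kb. Across 51 members with a length, the level in 786-O-Ctrl and the log2 fold change had a Spearman correlation of 0.0055. The points share their libraries, and the value is a description.

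The promoter letters were counted in windows from 250 bases before to 50 bases after the transcription start. CHR letters were present in 24 of the 43 members with a sequence (55.8%), against 16.6% of 27305 promoters of the table and 10.9% of 9755 promoters of genes tested. A CCAAT box was present in 30 members (69.8%), against 35.7% of all promoters and 36.4% of those of genes tested. Both were present in 18 members (41.9%), and in 6.58% of all promoters. The E2F letters were found in 14 members (32.6%), against 13.1% and 20.9%. Letters of the hypoxia response element (ACGTG as well as GCGTG) were found in 21 members (48.8%), beside 48.4% and 63.1%. The last base of a CCAAT box can also be the first of a CHR match, and E2F letters on the opposite strand can overlap a CCAAT box.

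Both members with and members without these letters were lower as a group, and the difference between them was not tested. The median log2 fold change was -0.99 over the 24 members with CHR letters and -0.88 over the 19 without, and -1.05 and -0.75 for the CCAAT box. Over the 14 members with E2F letters it was -1.03, and -0.98 without. For the hypoxia response element letters the order was the other way, with -0.91 over the 21 members that hold them and -1.05 without. CENPA, at -0.0032, and ZWINT, at -2.43, both hold CHR letters, CCAAT boxes and E2F letters. CDC25B is among the members with neither a CHR nor a CCAAT match, as are CENPI, CENPE, CENPP, CDC25C, NSL1 and DSN1, whose log2 fold changes lay between -2.14 and -0.23.

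Other genes of mitosis, in 8 lists of 85 genes that are no members, were read from the same fit. Among the 83 tested, 62 were lower and 6 higher, and the median log2 fold change was -0.76. Over all genes tested, 31.9% were lower, 7.52% were lower past 2-fold and 32.6% were higher. The condensin subunits, which compact chromosomes, were lower in 8 of 8 cases, 7 of them past 2-fold, and NCAPH had the lowest log2 fold change at -1.84. Of 14 tested spindle and cytokinesis proteins all were lower, SPAG5 most at -1.69. Of 9 further mitotic kinases and their regulators 8 were lower, PKMYT1 most at -1.34. Of 13 further kinetochore genes and factors that load CENP-A 12 were lower, CENPS, CENPX and MIS18A most with -1.36, -1.27 and -1.07, and 10 were lower in DESeq2 and without 786-O-VHL replicate 2. CENPS had only 29, 33, 4 and 9 counts, and its levels of 1.38 CPM in the deeper 786-O-Ctrl library and 1.36 CPM in 786-O-VHL replicate 1 were nearly equal (edgeR FDR = 0.0213). HJURP, the chaperone of CENP-A, was picked after its values had been seen and fell from 190 and 189 CPM to 93.6 and 98.6 CPM while CENPA did not pass.

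The remaining lists of other mitotic genes were more mixed. Of the 15 subunits of the anaphase-promoting complex with its coactivator FZR1, 8 were lower and 2 were higher. The shares over all genes tested were 31.9% lower and 32.6% higher. The median log2 fold change of these 15 genes was -0.25, and with scaling by library totals alone the number of lower genes was 4. ANAPC15 had the lowest value at -1.07, and ANAPC13 and ANAPC16 were higher with 0.60 and 0.50. Of 13 genes of cohesin and its regulators, 7 were lower and 3 were higher; the acetyltransferase ESCO2 was lower at -1.57 and its paralog ESCO1 higher at 0.67. Under library totals 6 cohesin genes were higher, and without the shallower 786-O-Ctrl library 1 was.

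TRIP13, which recycles MAD2, was lower at -1.68, whereas MAD1L1 was called higher from 15, 19, 9 and 49 counts. That call among the checkpoint regulators was absent without the deeper 786-O-Ctrl library and without 786-O-VHL replicate 2. After thinning to the shallowest library, 4 of these regulators were tested and none was higher. Of the MuvB core and MYBL2, MYBL2, which encodes B-MYB, had the lowest log2 fold change at -1.47, RBBP4 and LIN9 were lower by less with -0.32 and -0.53 (LIN9 overlapped between the groups), and LIN37, LIN52 and LIN54 did not pass.

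Replication genes gave a second point of reference. Of 15 genes of the MCM helicase and of replication origins, 15 were lower, 14 of them past 2-fold. These calls stand beside 31.9% and 7.52% of all genes tested. The median log2 fold change was -2.17, beside -0.93 over the mitotic members. Past 4-fold with an edgeR FDR under 0.01 there were 9 of these 15 genes, and 4 of the 52 members, namely SPC25, ZWINT, CENPU and DSN1, against 1.54% of all genes tested. The difference between the lists was not tested.

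**Figure D4:**
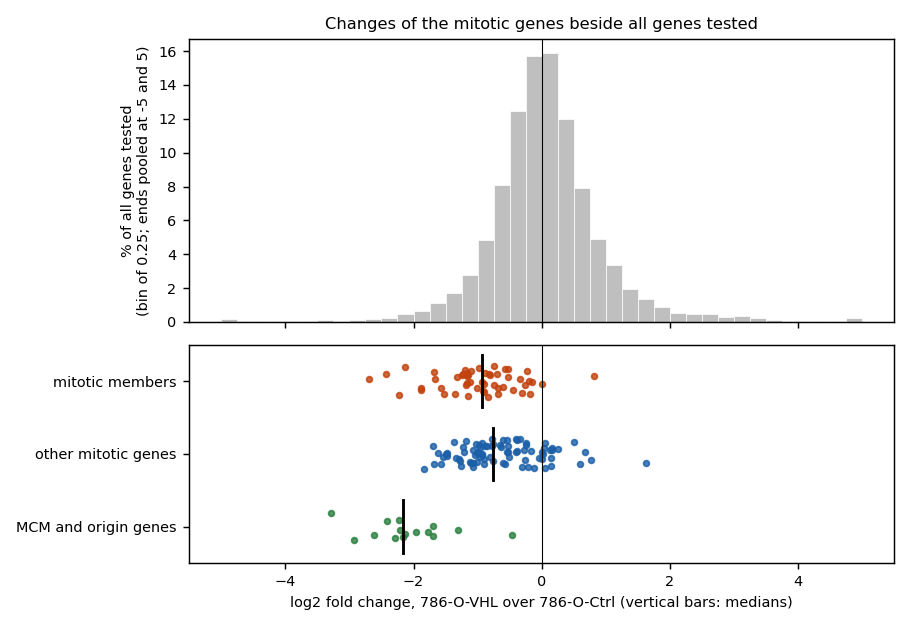
Upper panel, percent of the 12335 genes tested in bins of log2 fold change; lower panel, each tested gene of 3 lists as a point, with vertical bars at the medians. The medians lie at -0.93 for the mitotic members, at -0.76 for the other mitotic genes and at -2.17 for the MCM and origin genes, and that of all genes tested is 0.02.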

How the data were processed

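RNA of both sublines was sequenced from Illumina TruSeq libraries, 2 per group. The authors aligned reads to hg19 (STAR and CASAVA are named in the submitters' processing notes, without versions) and deposited raw counts per gene. How reads were counted, whether by strand and on which annotation is not given in the sources used here.

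Counts were tested with edgeR 4.0.16 (R 4.3.3): filterByExpr at a minimum count of 10 (12335 of 12912 genes kept), TMM scaling, group as the only term, quasi-likelihood F test, Benjamini-Hochberg adjustment (FDR) over all genes tested. The paper used DESeq2, which served as an alternative (1.42.0), beside limma-voom (3.58.1), RLE factors, library totals, both other filters on low counts, thinning to 2807779 counts, and each library left out. Standard errors follow from the F statistic, and 95% intervals from the moderated degrees of freedom. The biological coefficient of variation was 4.31%. Replicates differed beyond sampling noise (chi-square per degree of freedom 2.25 and 2.76), and limits for counts of 0 cover counting error only. On simulated counts for 12335 genes, edgeR recovered 40 of 50 genes lowered 2-fold and 48 of 50 lowered 4-fold, with 15 false calls.

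Samples were grouped by title. Coordinates, exon lengths and overlaps come from GENCODE v44 lifted to GRCh37; promoters come from RefSeq (GRCh38.p14). Every member could be named. Library values are given for the members of each role that changed most or did not pass. They are also given for further members outside that rule, such as BUB3, ECT2, AURKB and CENPF. For each other list, up to 3 genes per direction with the largest change past the FDR are given. The members, lists and motifs were chosen with earlier results of these data known, and the complexes compared by share and the promoters shown after the values had been seen.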

Additional observations from a re-analysis of the deposited data

How the results depend on the processing

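Between 40 and 46 members were lower under the 11 alternatives, with 43 in DESeq2 and 40 of 50 tested after thinning to the shallowest library, and CDC25B was the only higher member in each. Between 21 and 25 were lower past 2-fold, and with 4-fold and FDR under 0.01 there were 4. Scaling by library totals alone raised the median of all genes tested by 0.13. The share of higher among all called genes went from 50.5% to 62.1%, and 44 members were then lower. Lower calls over all genes also became fewer, from 3939 of 12335 in the main fit to 3097 of 12335 with library totals. They were 3147 of 12335 in DESeq2 and 2856 of 10797 after thinning. Of 568 comparisons of a member's fold change with an alternative, 545 kept direction and call and 16 lost the call (CENPP, BUB3, SGO1, SPC25, NSL1 and PRC1). The other 7 were all of CENPA, with the sign reversed. Its value was 0.13 with library totals, 0.00739 in DESeq2, 0.00105 with at least 10 counts in every library and 0.021 after thinning. In these settings its FDR was at least 0.149. With each library left out it was between -0.059 and 0.14. Among those fits, only the fit without 786-O-VHL replicate 1, at -0.059, kept the sign. The cause was not tested. Members with few counts are limited by the depth of 786-O-VHL replicate 1, where 3 counts are 1.02 CPM. No paired analysis was possible because both 786-O-Ctrl columns of the count table carry the same replicate number.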
